A study of Rattus norvegicus with 176 samples.

Results

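The genes of the proteasome were followed through a long-term study of clofibric acid (CA) in rat liver. They were taken by name: every gene whose symbol begins with Psma, Psmb, Psmc, Psmd, Psme, Psmf or Psmg and a number, without Psmb8 and Psmb9. This gave 41 of the 10411 genes on the array. Of these, 39 are subunits, activators, an inhibitor or assembly chaperones of the proteasome, and 2 (Psmc3ip and Psme3ip1) carry the symbol of a subunit they were named after and are no part of the particle. Psmb6 and Psme3 have no value here, because their probe sets also name other genes.

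The proteasome is the machine that degrades proteins tagged with ubiquitin. Its 20S core is a barrel of rings: the alpha subunits (Psma) form the outer rings and gate the entry, and the beta subunits (Psmb) form the inner rings, some of which carry the proteolytic sites. The 19S particle caps the barrel. Its ATPases (Psmc) unfold substrates and its non-ATPase subunits (Psmd) bind and release ubiquitin. Psme proteins are alternative activators of the core, Psmf1 encodes an inhibitor (PI31), and Psmg proteins with Psmd5, Psmd9 and Psmd10 are chaperones that build the core or the 19S base. In cells exposed to interferon, and constitutively in many immune cells, the inducible beta subunits Psmb8, Psmb9 and Psmb10 replace their constitutive counterparts, Psmb10 taking the place of Psmb7.

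RNA of liver sections from F344 rats was hybridised to Affymetrix arrays, 1 array per section. CA is a fibrate and acts through the nuclear receptor PPARalpha; DEN commonly abbreviates diethylnitrosamine, a liver carcinogen. There were 5 rats at each time and arm: control, CA, DEN and DEN-CA at the times 5j, 1m, 3m, 9m, and 12m, and control and CA also at 18m. Another 5 controls and 5 DEN rats had the time -8, for which no unit is given. Groups tagged rev held 3 control and 4 CA rats at 18m, and 4 control, 6 DEN and 5 DEN-CA rats at 12m, the DEN rats with no unit on the time. A further 6 CA rats were labelled 18 with no unit. From 16 rats there were 23 additional sections tagged TU, and from 5 rats 1 section each tagged PERI. The labels spell out neither j, rev, TU nor PERI, give no age, sex or DEN dose, and name 5000 ppm CA in every title, controls included, so the arms rest on the group names. Sections tagged TU and PERI are compared only with the untagged section of the same rat. The TU comparison pools groups: its 9 CA rats are 2 of 12m, 4 of 18m, 1 rev rat of 18m and 2 labelled 18, and its 7 DEN-CA rats are 3 of 9m, 3 of 12m and 1 rev rat of 12m.

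The 148 untagged arrays had medians of deposited intensity that, with the tagged arrays, ran from 25.35 to 187.25, and each array was scaled to a common median. Signals below are these scaled intensities, and changes are differences of log2(signal + 25), each with its standard error, from a limma fit over all groups. A gene is called where its p, adjusted after Benjamini and Hochberg over all 12393 probe sets tested, is under 0.05. Rats are the replicates, so p-values measure the spread between rats of a group. Arrays of a group correlated at 0.912 or more (median 0.965), and no arrays were identical. The arms matched their labels in a check on known targets: all 4 genes of a short list of PPARalpha targets were called higher in CA (median change 2.61) and in DEN-CA (2.64) rats. All 5 hepatocyte markers were present. In bulk liver, fewer cells of a type and less RNA per cell cannot be told apart. Of the untagged arrays, 46 carry a B suffix that the labels do not explain. It is spread unevenly over the groups up to 9m and absent at 12m and 18m. The untagged section of CA rat 4137 at 12m stood apart: with that rat no gene of 8325 was called in the TU comparison of the CA arm, and without it 9.3% were called higher and 12.7% lower. DEN-CA rev rat 4111 stood apart too: 1 of its 2 TU sections had a summed acinar pancreas signal of 19790 (257.6 in the other), and its untagged section a summed T and NK signal of 5054. Most member results that rest on these rats are given with and without them, and medians and results of marker lists with them only. Counts of members with 1 rat left out have no share of all genes beside them, except TU in the CA arm without rat 4137.

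The members did not share a single promoter layout. Of the 41 genes, 39 had a promoter in the RefSeq table of build GRCr8, which spans 250 bases before to 50 bases after the start; Psma7 and Psmd6 were not matched. The 120 bases before the start are shown for the members the results turn on: Psmg3 and Psmd8, with the largest rise under CA, Psmb7, Psma6 and Psmb5 from the core, and Psmb10, the inducible subunit that fell. Capitals mark 5 motifs, each searched on both strands. The core of the element bound by the Nrf factors was searched as TGACNNNGC. The box bound by NF-Y was searched as CCAAT, and the GC box as GGGCGG. An ETS-type motif was searched as CCGGAAG. The core of an interferon response element was searched as GAAA repeated after 2 bases of any kind.
Psmg3 (chr12:19923168-19923287, plus strand): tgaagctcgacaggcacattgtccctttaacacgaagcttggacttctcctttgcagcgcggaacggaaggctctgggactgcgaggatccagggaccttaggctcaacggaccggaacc
Psmd8 (chr1:93608690-93608809, minus strand): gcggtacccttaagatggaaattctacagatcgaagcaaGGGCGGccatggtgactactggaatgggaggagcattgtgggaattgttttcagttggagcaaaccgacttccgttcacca
Psmb7 (chr3:42827471-42827590, minus strand): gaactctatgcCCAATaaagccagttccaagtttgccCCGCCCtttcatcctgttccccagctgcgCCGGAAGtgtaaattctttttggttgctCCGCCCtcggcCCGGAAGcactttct
Psma6 (chr6:78514227-78514346, plus strand): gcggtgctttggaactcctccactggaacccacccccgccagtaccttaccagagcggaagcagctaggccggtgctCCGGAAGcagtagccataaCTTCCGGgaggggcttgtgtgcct
Psmb5 (chr15:32047380-32047499, minus strand): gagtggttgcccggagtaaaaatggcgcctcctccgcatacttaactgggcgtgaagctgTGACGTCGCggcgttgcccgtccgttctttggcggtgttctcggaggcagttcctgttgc
Psmb10 (chr19:50743293-50743412, minus strand): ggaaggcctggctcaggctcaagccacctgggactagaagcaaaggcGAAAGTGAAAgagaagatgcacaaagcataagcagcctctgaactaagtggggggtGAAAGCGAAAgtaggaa

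Over the whole promoter window, CCGGAAG lay in 14 of 39 members (35.9%, against 15.6% of 8551 array genes with a promoter), CCAAT in 20 (51.3% against 37.7%) and GGGCGG in 27 (69.2% against 59.8%). TGACNNNGC lay in 7 (17.9% against 14.6%), among them Psmb5, Psma3, Psmb2, Psmd1 and Psmd3. TATAAA lay in 4 (10.3% against 8.64%). A direct repeat of AGGTCA with 1 base between the copies, the textbook form of the PPARalpha element, lay in no member, and in 0.0117% of array genes. The repeat of GAAA, which was added after the Psmb10 sequence had been seen, lay in 6 members (15.4% against 2.85%): Psma4, Psmb3, Psmb10, Psmd7, Psme2 and Psmg4. The CCAAT, TGACNNNGC and GGGCGG matches of Psmb2 overlap. In the 120 bases printed above, Psmb10 holds the repeat of GAAA at both marked places and Psmg3 holds no match to these 5 motifs. Outside the printed bases but within the whole promoter window, Psmg3 does hold the box bound by NF-Y, the GC box and the ETS-type motif. It is among the members counted above for each. A match is a description of the letters and not of a bound site.

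Under CA, averaged over the 6 times from 5j to 18m, 22 of the 41 members were called higher than in controls and 2 lower. Over all genes tested, 18.8% were called higher and 22.6% lower. All 41 passed the filter on dim probe sets. The median change of the members was 0.15, or 1.11-fold, against -0.014 for all genes. The changes were small: apart from Psmg3 and Psmd8, no member moved by more than 0.33 on the log2 scale.

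The rise was spread over the core and the cap. In the 20S core 8 of 13 members were called higher and none lower (median 0.19), and in the 19S particle 9 of 14 higher and 1 lower (median 0.18). Both rings of the core contributed 4 genes: Psma2, Psma4, Psma6 and Psma7 of 7 alpha subunits (median 0.23), and Psmb1, Psmb4, Psmb5 and Psmb7 of 6 beta subunits (median 0.17). Of 5 ATPases 4 rose, Psmc1, Psmc2, Psmc3 and Psmc5 (median 0.21), and Psmc4 stood at 0.083 ± 0.046 (adjusted p = 0.151). Of 9 non-ATPase subunits 5 rose (Psmd2, Psmd4, Psmd6, Psmd8 and Psmd13) and Psmd11 fell. Of 7 chaperones 3 rose, Psmg2, Psmg3 and Psmd10. The inhibitor Psmf1 rose too, as did Psmc3ip, which is no subunit (0.13 ± 0.055, adjusted p = 0.0444). None of the 3 activators was called, with Psme1 at -0.004, Psme2 at -0.019 and Psme4 at -0.08.

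Psmg3, a chaperone that pairs with Psmg4 in assembling the alpha ring, changed most. Its signal was 273 ± 36.6 (SD, n = 30) in controls, between 183 and 329, and 413 ± 63.1 (n = 30) in CA rats, between 310 and 559. The change was 0.55 ± 0.049 (1.47-fold, adjusted p = 2.94e-19). Psmd8 (Rpn12), a lid subunit of the 19S particle, had signals of 1018 ± 175 in controls and 1414 ± 283 in CA rats, a change of 0.46 ± 0.059 (adjusted p = 4.45e-11). For both genes the arms overlapped when all times were pooled, and the difference of the means exceeded the SD within either arm.

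In the core, Psmb7, the constitutive subunit with trypsin-like activity, rose from 1577 ± 297 (n = 30) to 2005 ± 452, by 0.33 ± 0.071 (adjusted p = 4.76e-05). Psmb5, the subunit with chymotrypsin-like activity, rose from 2015 ± 290.0 to 2298 ± 354, by 0.19 ± 0.049 (adjusted p = 9.14e-04). Psma6 led the alpha ring, with 2576 ± 347 in controls and 3112 ± 547 in CA rats, a rise of 0.26 ± 0.054 (adjusted p = 2.54e-05). The single-rat values of these 3 genes overlapped widely between the arms. Psma3 stood at -0.15 ± 0.072 (adjusted p = 0.0784) and Psmb2, which has no catalytic site, at -0.002.

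In the 19S base the ATPase Psmc3 had signals of 705 ± 147 in controls and 894 ± 209 in CA rats (0.33 ± 0.08, adjusted p = 3.68e-04), and Psmc5 of 551 ± 126 and 673 ± 144 (0.28 ± 0.074, adjusted p = 0.00125). Psmd4, a ubiquitin receptor, went from 520 ± 97.6 to 641 ± 121 (0.29 ± 0.059, adjusted p = 2.11e-05). Psmd10 (gankyrin), a chaperone of the base, went from 270 ± 54.0 to 334 ± 64.5 (0.29 ± 0.064, adjusted p = 8.21e-05), and the inhibitor Psmf1 from 486 ± 114 to 588 ± 131 (0.27 ± 0.073, adjusted p = 0.00129). Psmg4, the partner of Psmg3, stood at 0.22 ± 0.095 and was not called (adjusted p = 0.0528).

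The members that fell were Psmb10 and Psmd11. Psmb10 went from 272 ± 71.1 (n = 30) in controls to 211 ± 52.8 in CA rats, by -0.33 ± 0.08 (adjusted p = 4.28e-04). Psmd11, a scaffold subunit of the lid, fell by 0.19 on the log2 scale (SE 0.051, adjusted p = 0.00138) on its brighter probe set, while its other probe set stood at -0.038 ± 0.06 (adjusted p = 0.661). Psme4 was likewise read by 3 probe sets, and 1 of the dimmer ones was called (-0.16 ± 0.049, adjusted p = 0.00586).

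**Figure D1:**
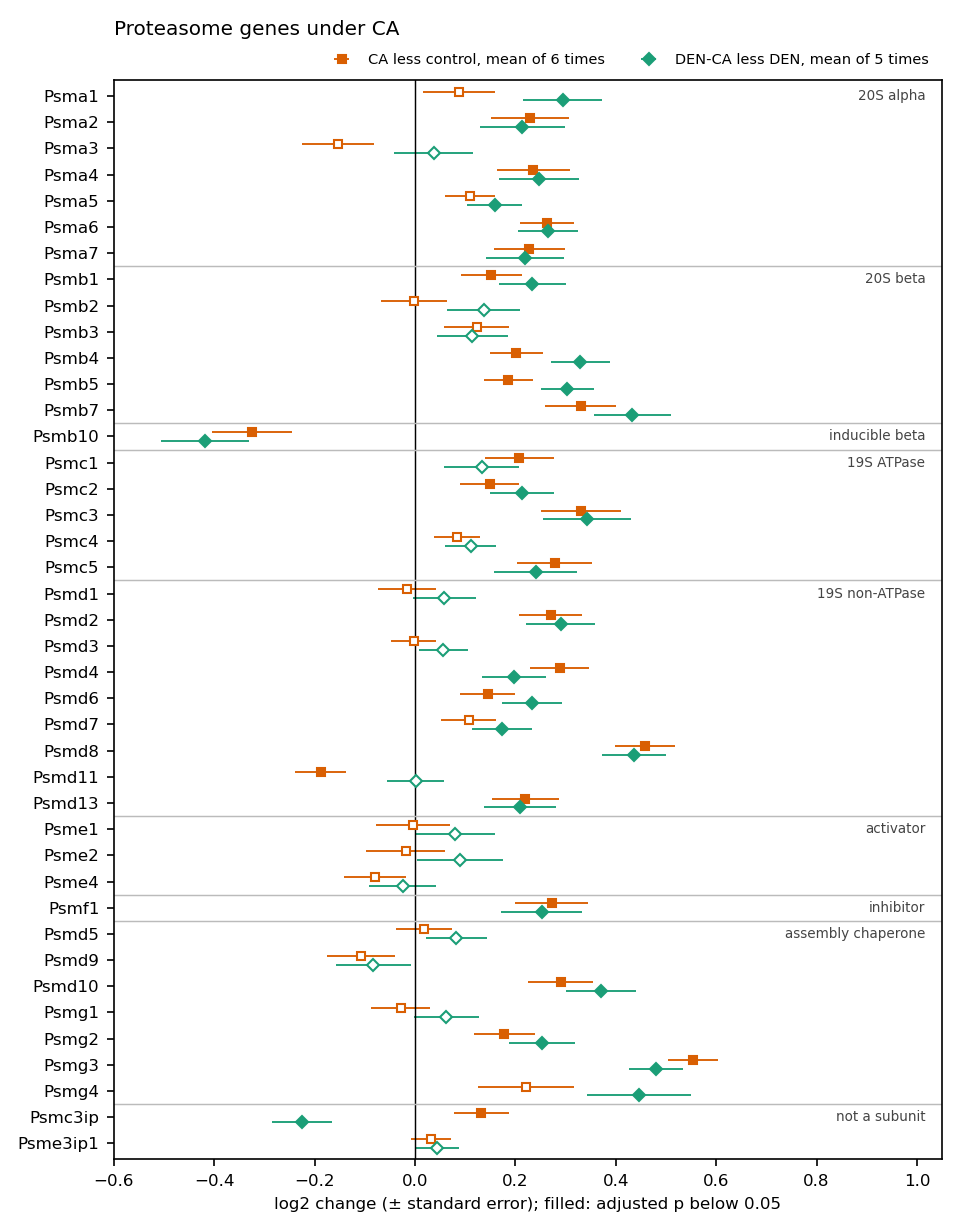
Log2 change of each of the 41 members (rows, grouped by subcomplex) for CA against control over 6 times and for DEN-CA against DEN over 5 times. Bars are standard errors and filled symbols have an adjusted p under 0.05; most 20S and 19S members lie to the right of 0 in both arms, Psmg3 and Psmd8 farthest in CA, and Psmb10 to the left in both.

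After DEN, CA moved a similar number of members. DEN-CA rats had 24 members called higher than DEN rats and 2 lower over the 5 times, where 21.1% of all genes were called higher and 16.3% lower. The median change of the members was 0.21, against 0.003 for all genes. In the core 10 of 13 were higher, 6 of them alpha and 4 beta subunits (median 0.23). In the 19S particle 9 of 14 were higher (median 0.20), and of the chaperones 4 of 7.

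Psmg3 again rose most, from 288 ± 44.8 (SD, n = 25) in DEN to 410.2 ± 50.9 in DEN-CA rats, by 0.48 ± 0.053 (adjusted p = 1.22e-13). Psmg4 rose from 563 ± 175 to 765 ± 195, by 0.45 ± 0.10 (adjusted p = 2.31e-04). Psmb7 rose from 1539 ± 333 to 2098 ± 526, by 0.43 ± 0.077 (adjusted p = 1.51e-06). So both chaperones of the Psmg3 and Psmg4 pair were called after DEN, and only Psmg3 without it. Psmd8 rose by 0.44 ± 0.064 (adjusted p = 8.16e-09), Psmb4 by 0.33 ± 0.059 (adjusted p = 1.42e-06) and Psmb5 by 0.30 ± 0.053 (adjusted p = 1.03e-06). Psmb10 fell from 267 ± 66.4 to 193 ± 45.8, by 0.42 on the log2 scale (SE 0.088, adjusted p = 4.15e-05), and Psmc3ip, a meiotic recombination factor and no subunit, fell by 0.23 (SE 0.06, adjusted p = 0.00134).

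Set side by side, 20 members were called higher in both arms, as were 15.3% of all genes, and Psmb10 was the 1 member called lower in both, as were 13.1% of all genes. The arms used separate control and DEN rats, so no samples are shared. The difference between the arms was itself tested over the 5 shared times: limma called no member (0 of 41, 3 at an unadjusted p under 0.05), and 0% of all genes higher and 0.0115% lower. That test's value for Psmg4 was not called, so its rise in 1 arm alone is not shown to be a difference. Psmc3ip came nearest, with -0.34 ± 0.085 (adjusted p = 0.0854).

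DEN alone gave no call among the members. Over the 5 times, limma called 0 of 41 (0 at an unadjusted p under 0.05), with a median of -0.018, and 0.0115% of all genes higher and 0% lower. At the time -8 it called 0 of 41 (2 at an unadjusted p under 0.05), with a median of -0.14 for the members and -0.075 for all genes, of which 0.126% were called higher and 0.183% lower. Under quantile normalization the members' median at -8 was 0.002.

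At single times, with 5 rats against 5, fewer members were called. CA against control gave 2 higher and 1 lower at 5j (4.1% and 7.11% of all genes), 4 and 1 at 1m (5.45% and 9.22%), and 6 and 0 at 3m (6.97% and 7.32%). At 9m it gave 2 and 0 (4.55% and 2.82%), at 12m 1 and 0 (7.29% and 4.98%), and at 18m 1 and 1 (3.69% and 3.57%). The members' median change was 0.15, 0.20, 0.21, 0.17, 0.15 and 0.053 at these times. The lower median at 18m was not a called difference. Between the CA effect at 18m and that at 5j, limma called no member (0 of 41, 2 at an unadjusted p under 0.05), with 0.321% of all genes called higher and 0.344% lower. Under quantile normalization the members' median was 0.188 at 5j, 0.137 at 12m and 0.12 at 18m.

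Psmg3 was called higher at every time in both arms, 11 of 11 comparisons, with changes from 0.36 to 0.63. Of 8733 genes, 63 (0.721%) were called higher in all 11. Fitted with only the groups compared, Psmg3 was called in 8 of the 11, not in CA at 5j (adjusted p = 0.0965) or 3m (0.0699) nor in DEN-CA at 9m (0.0557). At 9m in DEN-CA rats its call was also lost without the filter, with the B suffix as a covariate, and in 8 of the 10 fits that leave out 1 rat (adjusted p up to 0.2). At 5j in CA rats it was lost without control rat 4009 (adjusted p = 0.0664). At 1m its signals were 183, 219, 236, 290 and 298 in controls and 337, 352, 400, 410 and 452 in CA rats. At 18m they were 235, 280, 287, 295 and 300.4 in controls and 382, 405, 407, 440 and 468 in CA rats. The groups did not overlap at 1m, 9m, 12m and 18m, nor at any of the 5 times between DEN and DEN-CA rats. At 5j the lowest CA rat (309.9) lay beside the highest control (310.0), and at 3m the lowest CA rat (315) lay below the highest control (326).

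Psmd8 and Psmd10 were each called higher in 5 of the 11 comparisons, and 426 genes (4.88%) in at least 5. At 5j the Psmd8 signals were 716, 960, 1029, 1188 and 1407 in controls and 1442, 1626, 1642, 1821 and 1860 in CA rats, with no overlap, and the change was 0.68 ± 0.14 (adjusted p = 2.77e-04). Psmd8 was above 0 in all 11 comparisons, from 0.12 to 0.71. Besides these, Psmd9 fell at 5j by 0.50 on the log2 scale, Psma6 rose at 1m by 0.41 (SE 0.13), Psma7, Psmd4 and Psmc3 rose at 3m, and Psmd13 rose at 9m by 0.49 (SE 0.16). For Psmd13 the 5 control signals (159, 178, 179, 186 and 202) all lay below the 5 CA signals (219, 228, 269, 282 and 331).

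**Figure D2:**
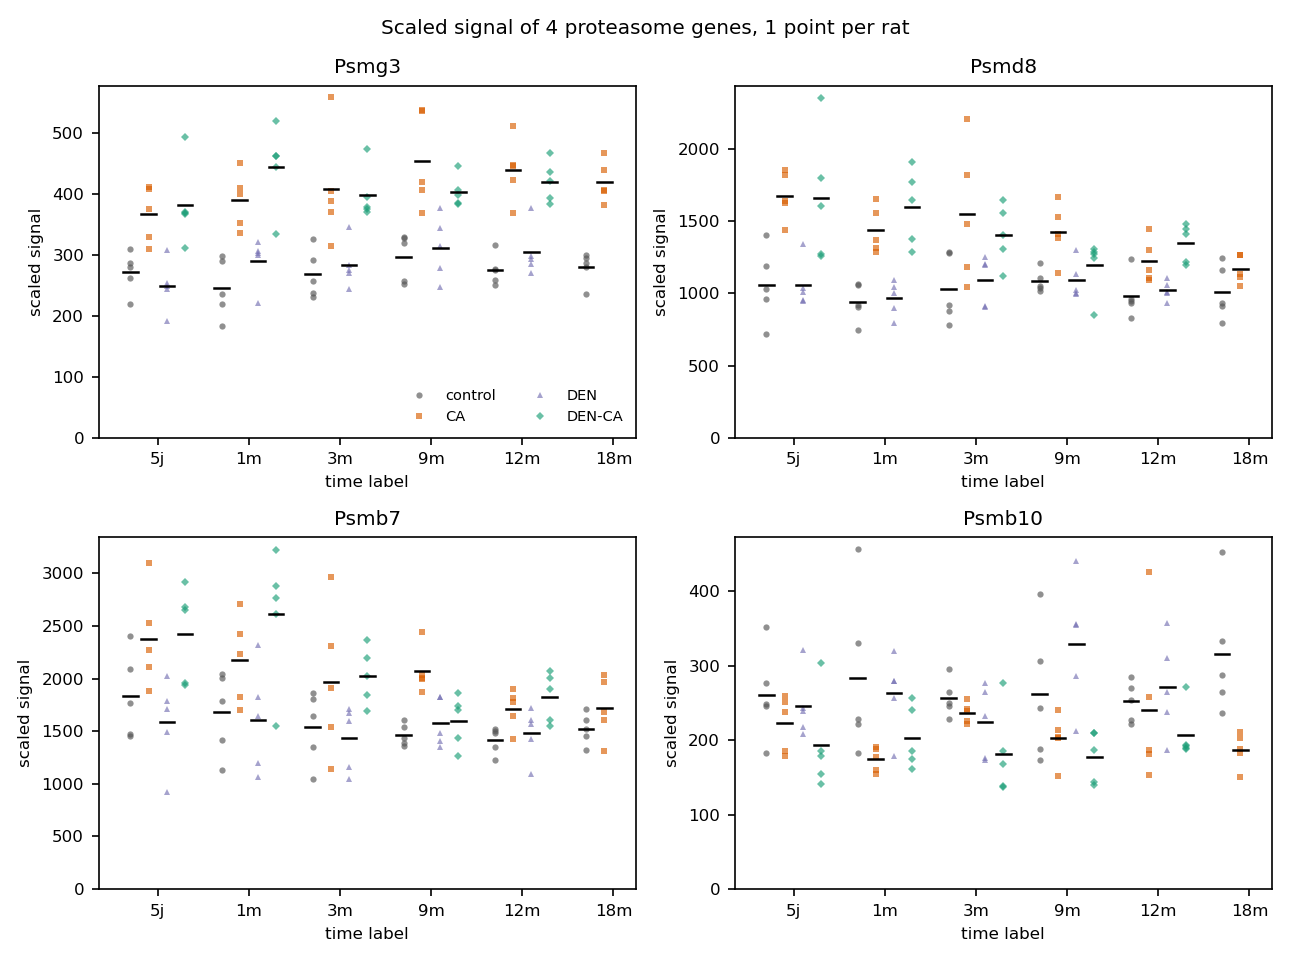
Scaled signal of Psmg3, Psmd8, Psmb7 and Psmb10 (vertical axis, from 0) in every untagged rat (points) by time label, for control, CA, DEN and DEN-CA rats, with group means as black bars. Psmg3 in CA and DEN-CA rats lies above control and DEN rats at most times, with its CA and control groups meeting at 5j and 3m, and the group means of Psmb10 are lower with CA than without at every time.

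The DEN-CA arm had its calls early. DEN-CA against DEN gave 17 members higher and none lower at 5j (7.43% and 4.09% of all genes), 18 and 0 at 1m (12.2% and 5.61%) and 10 and 1 at 3m (11.2% and 4.23%). It then gave 1 and 3 at 9m (2.4% and 4.95%) and 1 and 0 at 12m (3.57% and 3.86%). The median change of the 13 core members was 0.51 at 5j and 0.56 at 1m, with 9 of them called at each. The members' median was 0.37, 0.44, 0.22, -0.15 and 0.044 at the 5 times.

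At 5j, Psma4 had signals of 376, 408, 624, 658 and 796 in DEN and 666, 907, 907, 1036 and 1341 in DEN-CA rats (0.76 ± 0.18, adjusted p = 0.0014). At 1m, Psmb5 had 1710, 1812, 1846, 1982 and 2024 in DEN and 2230, 2658, 2731, 2937 and 3391 in DEN-CA rats (0.56 ± 0.12, adjusted p = 2.09e-04). Psmb7 had 1067, 1200, 1643, 1825 and 2315 in DEN and 1553, 2614, 2768, 2884 and 3225 in DEN-CA rats at 1m (0.70 ± 0.17, adjusted p = 0.00154). Only Psmb5 of these separated its groups fully. At 3m, Psmd10 rose from 219 ± 59.5 (n = 5) to 387 ± 75.5 (0.77 ± 0.16, adjusted p = 1.38e-04) and Psmg4 from 482 ± 148 to 849 ± 174 (0.81 ± 0.23, adjusted p = 0.00865). At 9m the 3 that fell were Psmb10 (-0.79 ± 0.20, adjusted p = 0.00359), Psmb2 (-0.49) and Psmc3ip (-0.41), and Psmg3 rose by 0.36. Under quantile normalization the members' median at 9m was 0.006 in place of -0.15.

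The level of the core moved with the whole array. The mean log2 value over the 13 core members was 10.29 ± 0.23 (SD, n = 5) in DEN rats at 5j, 10.57 ± 0.16 in controls, 10.71 ± 0.22 in CA and 10.78 ± 0.21 in DEN-CA rats. At 1m it was 10.33 ± 0.26 in DEN, 10.38 ± 0.21 in controls, 10.58 ± 0.19 in CA and 10.83 ± 0.30 in DEN-CA rats. At 9m the DEN-CA mean (10.30 ± 0.12) lay below the DEN mean (10.51 ± 0.13). Within groups, over 148 arrays, the core mean correlated at 0.926 with the mean of all genes on the same array and at 0.034 with the array's median before scaling. These points share the array and its scaling, so this is a description. The core mean was 10.57 ± 0.24 in the 46 arrays with the B suffix and 10.40 ± 0.22 in the other 102. At 9m 4 of 5 DEN-CA arrays and 1 of 5 DEN arrays carried the suffix. Their part in the changes by time was not tested beyond the following values.

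On arrays without the suffix alone, CA against control over the 6 times gave 19 members higher and 2 lower (median 0.15; 16.3% of genes higher), from 25 CA and 21 control arrays. DEN-CA against DEN gave 9 higher and 1 lower (median 0.087; 9.62% of genes higher), from 11 and 16 arrays, in place of 24 and 2. Psma7 then stood at -0.049 in DEN-CA rats, in place of 0.22. At 5j DEN-CA gave 15 higher without the suffix (3 arrays against 2) and 4 with it (2 against 3). At 1m it gave none without (1 against 2) and 18 higher with it (4 against 3). At 12m and 18m no array carries the suffix.

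**Figure D3:**
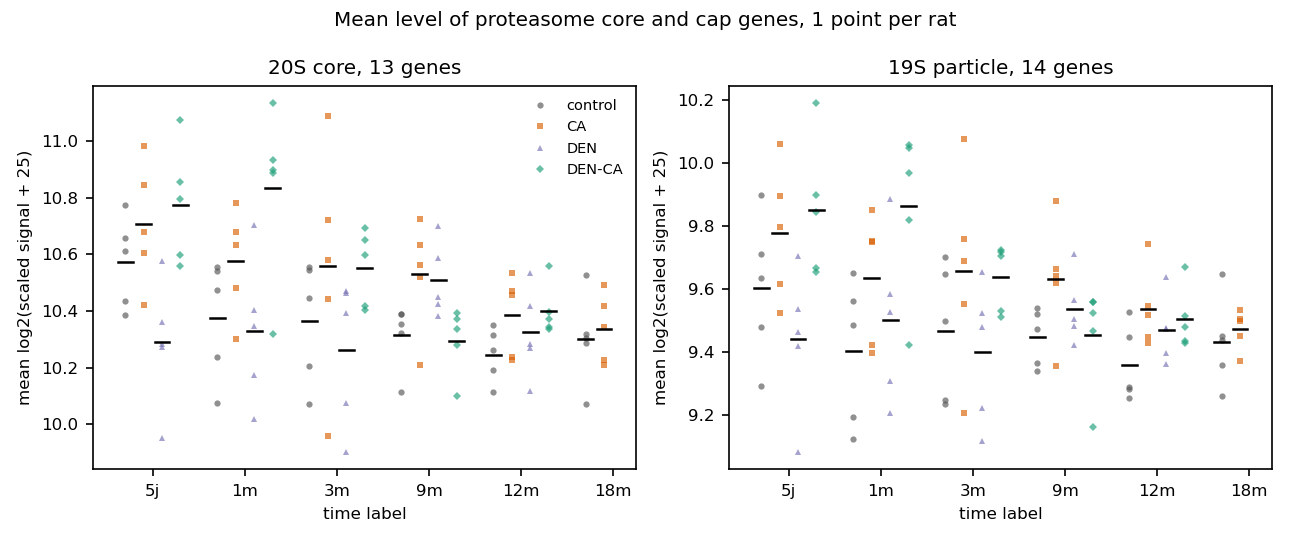
Mean log2(signal + 25) over the 13 core members (left) and the 14 members of the 19S particle (right) on each untagged array, 1 point per rat, by time label and arm, with group means as black bars. In both panels DEN-CA arrays have the higher mean than DEN arrays at 5j and 1m and the lower mean at 9m, with overlapping points at most times.

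**Figure D4:**
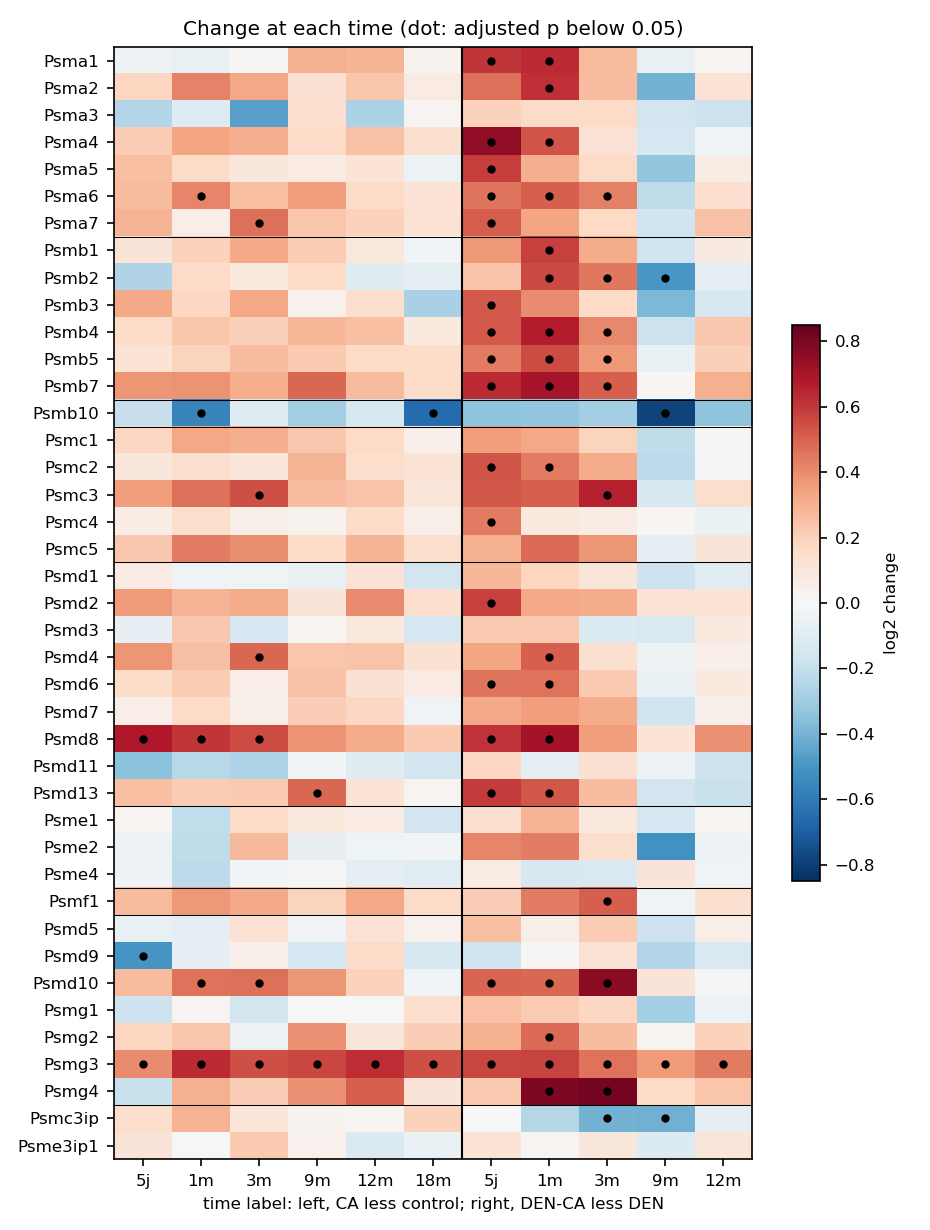
Heat map of the log2 change of each of the 41 members (rows, by subcomplex) at each time label, CA against control on the left and DEN-CA against DEN on the right; red is higher, blue lower, and a dot marks an adjusted p under 0.05. Psmg3 has a dot in all 11 columns, most other dots lie at 5j, 1m and 3m of the DEN-CA arm, and Psmb10 is blue throughout.

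The subunits varied together from array to array. Within groups, a core member correlated with the mean of the core at a median of 0.797 (from 0.414 to 0.909), a 19S member at a median of 0.765 (0.449 to 0.877), and all other genes at a median of 0.164 (148 arrays, sharing array and scaling). Members of the core were left out of their own mean. The activators Psme1 and Psme2, which form a ring that caps the core in cells exposed to interferon, correlated with it at 0.804 and 0.816. Psmb10 did so at 0.332 and Psmc3ip at -0.27, the lowest of the members.

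Psmb10, the inducible subunit, followed another course than the core. It was below 0 in all 11 single-time comparisons and called lower in 3 of them. At 1m, where it was called in CA rats, the groups overlapped. Its signals there were 182, 222, 229, 331 and 456 in controls, and 155, 160, 178, 188 and 190 in CA rats. The controls at 331 and 456 carry the B suffix. At 18m its signals were 237, 264, 287, 334 and 453 in controls and 151, 182, 189, 203 and 211 in CA rats, without overlap (-0.66 ± 0.20, adjusted p = 0.0215). At 9m they were 212, 286, 355, 356 and 440.0 in DEN and 139, 144, 187, 209 and 210.1 in DEN-CA rats, again without overlap. Of the other inducible subunits, Psmb8 fell in both arms (CA -0.60 ± 0.08, adjusted p = 1.76e-10; DEN-CA -0.57 ± 0.088, adjusted p = 2.95e-08), and Psmb9 was called in neither (-0.11 and -0.002).

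Markers of immune cells moved beside Psmb10. All 7 genes of a macrophage and Kupffer cell list were called lower in CA (median -0.43) and in DEN-CA rats (median -0.34). Of 6 T and NK cell markers tested, 3 were called lower in CA and 2 in DEN-CA rats, and of 10 interferon-induced genes, a list that holds Psmb8 and Psmb9, 4 in each, Psmb8 among them. Of 5 stellate cell and fibroblast markers 3 were called lower in each arm (median -0.27 in CA, -0.29 in DEN-CA). Of 3 endothelial markers 2 were called lower in CA and none in DEN-CA rats (medians -0.31 and -0.20). Of 3 bile duct markers 1 was called higher in each arm. At 1m the summed macrophage signal ran from 5074 to 8753 in controls and from 3080 to 4446 in CA rats. The 7 genes of the T and NK list summed to 377 to 2610 in controls of 18m and to 294 to 478 in CA rats of 18m. The highest control of 18m by that sum (2610) was also the highest in Psmb10 (453). Without that rat, Psmb10 at 18m stood at -0.52 ± 0.21 (adjusted p = 0.128) and was not called, and over 6 times it stood at -0.30 ± 0.08 (adjusted p = 0.00105). Within groups, Psmb10 correlated at 0.492 with the macrophage list and at 0.354 with the T and NK list (148 arrays, sharing array and scaling). The macrophage value was not particular to Psmb10: Psme1 correlated with that list at 0.711, Psmb8 at 0.633, Psmb7 at 0.474 and Psmb5 at 0.289. With the T and NK list Psmb7, which rose under CA, correlated at -0.063 and Psmb8 at 0.093. The part of these cells in the fall of Psmb10 was not tested.

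At 12m few members were called in the comparisons with rev groups. Psmg3 in the 5 DEN-CA rev rats of 12m was 282, 300.0, 305, 332 and 335, and in the 5 DEN-CA rats of 12m 384, 393, 422, 436 and 468, without overlap (0.41 ± 0.12, adjusted p = 0.0131). The 6 DEN rev rats ran from 248 to 355, around the DEN-CA rev rats. DEN-CA rev against DEN rev gave -0.005 for Psmg3, and 0.027 without rat 4111. In that comparison limma called no member (0 of 41, 1 at an unadjusted p under 0.05), with 0.0802% of genes higher and 0.0458% lower. DEN-CA against DEN-CA rev called 2 members higher and none lower (5.31% and 8% of all genes), Psmg3 and Psmc3ip (0.45, adjusted p = 0.0161). Without rat 4111, 2 were called as well, and Psmg3 stood at 0.38 ± 0.13 (adjusted p = 0.0377). The 4 control rev rats of 12m had Psmg3 signals of 265 to 310.1.

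At 18m the rev groups were smaller and higher in immune markers. Psmg3 was 446, 468, 479 and 502 in the 4 CA rev rats and 258, 380 and 466 in the 3 control rev rats, with overlap (0.38 ± 0.14, adjusted p = 0.282). CA rev against control rev called no member by limma (0 of 41, 2 at an unadjusted p under 0.05), with 0.149% of genes higher and 0.698% lower. CA against CA rev at 18m called none higher and 7 lower (7.96% and 6.92% of all genes): Psmb10, Psmb2, Psmb3, Psma5, Psmd1, Psmd3 and Psmd9. Psmg3 was not among them (-0.17 ± 0.13, adjusted p = 0.416).

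Of these 7, Psmb10 differed most. Its signals were 269, 330, 374 and 430 in CA rev rats, all above the highest CA rat of 18m (211), and the change was -0.81 ± 0.21 (adjusted p = 0.00298). The 3 control rev rats were at 378, 561 and 634. Psmb3 was 1072, 1172, 1307, 1318 and 1396 in CA and 1690, 1729, 1801 and 2040 in CA rev rats (-0.53, adjusted p = 0.0205), again without overlap. In the same comparison 4 of 7 macrophage markers were called lower (median -0.74), and their summed signal ran from 5340 to 6222 in CA and from 7489 to 10840 in CA rev rats. In control rev rats it ran from 11150 to 15100, and the rat with the highest T and NK sum (12200, against 693 and 1088 in the other 2) had the highest Psmb10. The part of these cells was not tested. Without 1 CA rev rat (4146) the calls of CA against CA rev went from 7 to 2.

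The 6 CA rats labelled 18 with no unit stood higher in most members than the controls of 18m. The labels do not say how they relate to the CA rats of 18m, so the time cannot be told apart from the group. Against controls of 18m, 17 members were higher and none lower (13.9% and 9.74% of all genes), with 9 of 13 core members and 5 of 7 chaperones. The median change was 0.37 over the members and 0.045 over all genes. The mean log2 value of all genes was also higher in them, 7.577 ± 0.018 (SD) against 7.537 ± 0.019 in controls of 18m. Psmg3 was 508, 509, 514, 547, 560.0 and 574 in them, above every control and CA rat of 18m (0.88 ± 0.11 against controls, adjusted p = 4.59e-10). Psmb5 was 2434, 2667, 2816, 2821, 2830 and 3010 against 1490, 1621, 1938, 2034 and 2172 in controls (0.58 ± 0.11, adjusted p = 3.37e-05), without overlap. Psma7 was 1345 to 1772 against 752 to 1023 (0.71, adjusted p = 4.45e-04). Psmb10 stood at 0.056 and was not called.

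Between the times 5j and 18m, few members were called in controls. Control rats of 18m against those of 5j had none higher and 3 lower (3.02% and 3.32% of all genes), Psma1 (-0.53), Psma7 (-0.52) and Psmd1 (-0.42). Psma1 ran from 824 to 1542 at 5j and from 585 to 1244 at 18m, with overlap. Of the 5 controls at 5j, 4 carry the B suffix and none at 18m, and with the suffix as a covariate the split was 2 higher and 1 lower.

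In TU sections the median change of the 13 core members against the untagged section of the same rat was -0.073 in 9 CA rats and -0.072 in 7 DEN-CA rats, from paired differences. The sign depended on the scaling. Over all members the median was -0.073 in the CA and -0.057 in the DEN-CA arm, and under quantile normalization 0.028 and 0.094. In the DEN-CA arm 4 members were called higher and 3 lower (12.5% and 18% of 8325 genes). Under quantile normalization the split was 9 higher and 1 lower, and without the pairing of sections 4 members were called in all.

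Psmb10 rose most, from 222 ± 88.6 (SD, n = 7) in untagged to 462 ± 100.2 in TU sections of the DEN-CA rats. The 7 within-rat differences were 0.42, 0.75, 0.82, 0.91, 1.22, 1.48 and 1.51, all above 0, and the mean was 1.02 ± 0.20 (2.02-fold, adjusted p = 0.00155). The lowest belonged to rat 4111, whose untagged section was highest (417) and whose TU sections were at 587.5, in the one with the high acinar signal, and 545.4. Without that rat Psmb10 stood at 1.11 ± 0.22 (adjusted p = 0.00292), and 4 members were called higher and 2 lower. The share of all genes called without that rat is not given here. Psmb8, the other inducible subunit on the array with a call, went the opposite way in the same 7 rats (-1.30 ± 0.26, adjusted p = 0.0016, lower in all 7), and Psmb9 was not called (-0.12, adjusted p = 0.567). In these sections 5 of 7 macrophage markers were called lower (median -0.75) and 4 of 10 interferon-induced genes lower, Psmb8 among them (median -0.38). Of the other lists, 2 of 5 stellate cell and fibroblast markers (median 0.40) and 2 of 3 acinar pancreas markers (median 0.77) were called higher, and 1 of 3 endothelial markers lower (median -0.27). These list results include rat 4111, with its acinar sum of 19790 in 1 TU section. In the other DEN-CA rats that sum ran from 192.8 to 354.1 in TU and from 204.8 to 262.2 in untagged sections. The part of the cells that these lists mark was not tested.

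Of the chaperones of the core, Psmg2 rose in TU sections of all 7 DEN-CA rats, by 0.079 to 0.92 (mean 0.49 ± 0.13, adjusted p = 0.00742), and Psmg4 in 6 of 7 (0.41 ± 0.14, adjusted p = 0.0284). Psmg1, which pairs with Psmg2, fell in all 7, by 0.098 to 0.56 on the log2 scale (SE of the mean 0.12, adjusted p = 0.0355). The 2 genes of that pair thus had calls in opposite directions under the main scaling. Beside them 12.5% of all genes were called higher and 18% lower. Psmg3 was not called. Psmd2, the large scaffold subunit of the 19S base, rose in 6 of 7 (0.33 ± 0.11, adjusted p = 0.0262). The activators Psme4 (PA200) and Psme1 fell, Psme4 from 768 ± 63.2 to 573 ± 102 and in all 7 rats (-0.42 ± 0.12, adjusted p = 0.00924), Psme1 in 6 of 7 (-0.36 ± 0.12, adjusted p = 0.0219). Without rat 4111 Psme1 stood at -0.28 ± 0.12 and was not called (adjusted p = 0.0844). The limma calls of the others held without that rat, those of Psmg4 and Psmd2 close to the threshold. Psmg2 stood at 0.505 (adjusted p = 0.0139), Psmg4 at 0.415 (0.0484) and Psmd2 at 0.328 (0.0491). Psmg1 stood at -0.383 (0.0352) and Psme4 at -0.411 (0.0216). Under quantile normalization 1 member was called lower in place of 3, so at most 1 of the falls of Psmg1, Psme4 and Psme1 kept its call. Which member that was is not given here.

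In the CA arm limma called no member in TU sections (0 of 41, 3 at an unadjusted p under 0.05; 0% of genes). Psmb10 was higher in 8 of 9 rats, by 0.38 to 0.96, and lower in rat 4137 (-1.27), for a mean of 0.37 ± 0.18 (adjusted p = 0.236). In that rat the untagged section had a Psmb10 signal of 426 and the TU and PERI sections 162 and 151, while the untagged sections of the other 4 CA rats of 12m were at 153 to 258. Without rat 4137, 1 member was called higher and 3 lower (9.3% and 12.7% of genes): Psmb10 (0.57 ± 0.12, adjusted p = 0.00271), Psmg1 (-0.45 ± 0.093, adjusted p = 0.00186), Psmc3 (-0.40 ± 0.11, adjusted p = 0.0132) and Psmb5 (-0.30 ± 0.10, adjusted p = 0.0442). In the DEN-CA arm the fit without it gave 4 higher and 4 lower, adding Psmc3 (-0.32, adjusted p = 0.0408). The share of all genes in that arm of the fit is not given here.

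The arms were not shown to differ in TU sections: limma called no member and no gene for the difference (0%). Psmb10 came to 0.65 ± 0.27 (adjusted p = 0.28), and without rat 4137 to 0.45 (adjusted p = 0.309). Without rat 4111 Psmb10 came to 0.749 (adjusted p = 0.263). In PERI sections of 5 rats limma called no member either (0 of 41, 0 at an unadjusted p under 0.05; 0% of 7442 genes). Without rat 4137, the CA effect in untagged sections over 6 times was little changed, with Psmg3 at 0.55 ± 0.049 and Psmb10 at -0.36 ± 0.078.

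**Figure D5:**
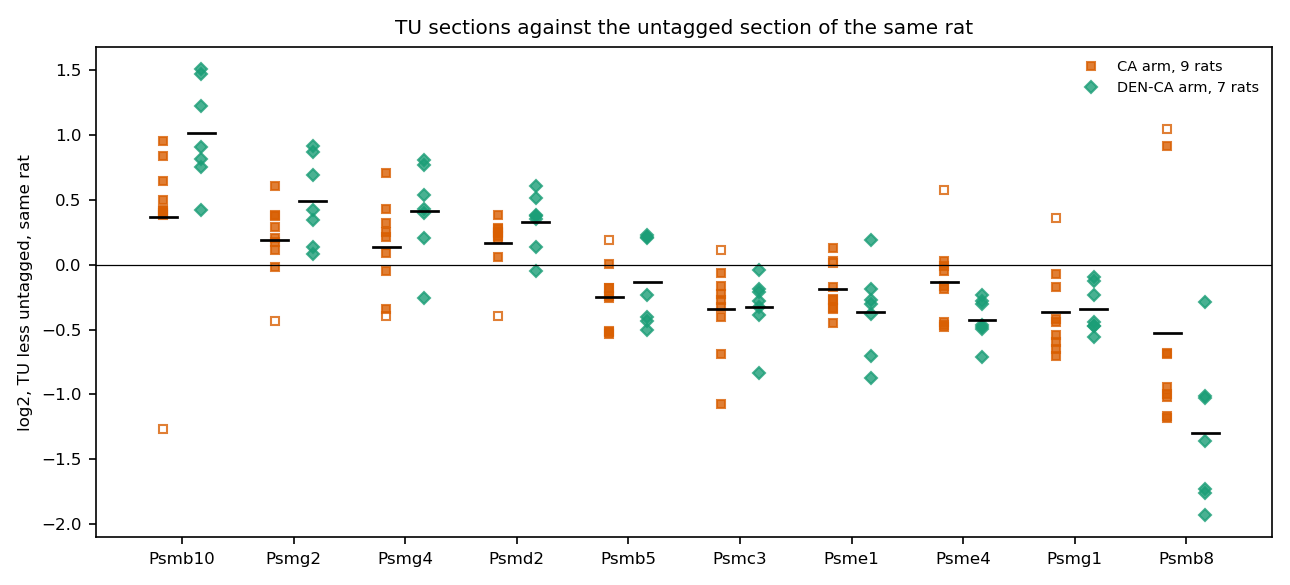
Difference of log2(signal + 25) between the TU sections of a rat and its untagged section, 1 point per rat, in the CA (9 rats) and DEN-CA (7 rats) arms. Selected members are shown, and Psmb8, which is not a member. Black bars are means and the open symbol is rat 4137. Psmb10 lies above 0 in all DEN-CA rats and in 8 of 9 CA rats, and Psmg1 lies below 0 in all 7 DEN-CA rats.

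The other genes of the pathway were counted from lists of named genes, beside 18.8% higher and 22.6% lower of all genes in CA and 21.1% and 16.3% in DEN-CA rats. Of 6 further proteasome genes 2 were called higher in CA rats and 2 in DEN-CA rats. These were Pomp, a chaperone that matures the core (0.21 ± 0.05, adjusted p = 3.32e-04 in CA; 0.27 ± 0.055, adjusted p = 2.78e-05 in DEN-CA), and Adrm1, a ubiquitin receptor of the 19S particle (0.23 ± 0.071, adjusted p = 0.00503 in CA; 0.45 ± 0.077, adjusted p = 6.7e-07 in DEN-CA). Of 5 regulators of proteasome genes, Nfe2l1, the factor that induces subunit genes when the proteasome is impaired, rose (0.17 in CA, 0.23 in DEN-CA), as did its partner Mafk (0.23 and 0.20). Nfe2l2, the related oxidative stress factor, fell in both (-0.42 ± 0.073, adjusted p = 8.21e-07 in CA; -0.41 in DEN-CA). Ddi2, the protease that activates Nfe2l1, fell in CA rats (-0.15), and Mafg rose in DEN-CA rats (0.15).

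Upstream of the particle there was no common direction. Of 10 genes for ubiquitin shuttles and the segregase, CA gave 1 higher (Ufd1) and 3 lower: Ubqln1 (-0.22), Syvn1 (-0.18) and Rad23b (-0.099). DEN-CA gave 1 higher and none lower, and TU sections of DEN-CA rats 2 lower, where 18% of all genes were called lower. Of 6 genes for ubiquitin and its activation, CA gave Uba1 (-0.18) and Ube2n (-0.11) lower, and DEN-CA gave Ube2d1 (0.27) higher.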

How the data were processed

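RNA of 176 liver sections was measured on Affymetrix arrays. The deposited values of the 15922 probe sets are linear intensities, made by the authors with MAS5 per the submitters' processing notes, whose version, scaling target and handling of replicates are not given in the sources used here. Probe sets with 1 gene symbol (12783) were used; a gene was read from its brightest probe set (mean log2 value). Each array was scaled to a median of 99.35, 25 was added before log2, and probe sets were kept that lay above the 40th percentile of an array on 3 arrays or more. Scaling to the median hides any shift common to most genes, and the offset makes folds of dim genes smaller. The number of arrays limits the precision. limma 3.58.1 in R 4.3.3 fitted a mean per group to 148 untagged arrays in 30 groups (118 residual degrees of freedom), with eBayes and an intensity trend; tests were two-sided, adjusted after Benjamini and Hochberg over 12393 probe sets (11566 for TU, 10174 for PERI). In tagged sections the pairing came from the rat number in the labels: TU sections of a rat were averaged and its untagged section subtracted. The code was first tested on simulated data.

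Members and gene lists were chosen with earlier results of these data known. Genes named were, per subcomplex, those with the largest, smallest and best supported CA change, those with the smallest p in the other comparisons, and all called at single times or in small counts, the last chosen after their values were seen. Alternatives were quantile normalization, an offset of 6, no filter, the mean of a gene's probe sets, the B suffix as a covariate, fits of only the groups compared, no pairing of sections, single rats left out and, added after seeing the data, arrays with or without the B suffix alone.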

Additional observations from a re-analysis of the deposited data

Results flagged for a closer look

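Among 58 sets of values, the core mean and the 19S mean in each untagged group of 4 to 6 arrays, 4 had an array far from the others by Dixon's criterion, where chance flags about 1 in 20. In controls of 9m, rat 4027 had a core mean of 10.112 on the log2 scale, against 10.323 to 10.39 in the other 4. In DEN-CA rats of 12m, rat 4110 had 10.56, against 10.337 to 10.396. In CA rats labelled 18, rat 4152 had 10.6, against 10.746 to 10.823. In DEN-CA rats of 9m, rat 4115 had a 19S mean of 9.164, against 9.466 to 9.561.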

How the results depend on the processing

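Counts of members called (main value first) changed by over 1.5 times or across 0 as follows. With quantile normalization CA at 5j went from 3 to 12, at 1m from 5 to 20, at 3m from 6 to 14, at 9m from 2 to 8 and at 12m from 1 to 5; DEN-CA at 12m from 1 to 4, the difference between arms from 0 to 1, 18m less 5j from 0 to 1, CA rev against control rev from 0 to 2, CA against CA rev from 7 to 13, DEN-CA against DEN-CA rev from 2 to 4 and control 18m against 5j from 3 to 12. With the B suffix as a covariate CA gave 9 at 5j, 10 at 1m and 2 at 12m, DEN-CA 5 at 3m (from 11), 12 at 9m (from 4) and 2 at 12m, 18m less 5j 1, and control 18m against 5j 3 with the direction reversed. With only the groups compared CA gave 1 at 5j, 2 at 1m, 0 at 3m and 2 at 12m, DEN-CA 7 at 5j (from 17), 6 at 1m (from 18) and 2 at 12m, and control 18m against 5j 0. On arrays with the B suffix CA gave 0 at 1m and 9m, and DEN-CA 4 at 5j, 2 at 3m and 2 at 9m. On arrays without it DEN-CA gave 10 over 5 times (from 26), 0 at 1m, 3m and 9m and 2 at 12m; control 18m against 5j gave 1, reversed, and Psma7 in DEN-CA went from 0.22 to -0.049. No filter gave CA 1 and DEN-CA 1 at 9m and control 18m against 5j 0; the mean of all probe sets gave the last 1. Without the pairing of sections as a block, TU in the DEN-CA arm gave 4 in place of 7, with 55 changes of named members keeping their side of the threshold and 1 losing its call. An offset of 6 kept every count within 1.5 times, and arrays with the B suffix could not give the counts over all times, as there are none at 12m and 18m. Of the changes of named members, quantile normalization left 83 alike, moved 21, added 6 calls and ended 2. Without the suffix DEN-CA has 1 array at each of 1m, 3m and 9m and control 1 at 5j, and with it CA has 1 at 1m, 3m and 9m and control and DEN 1 at 9m, so these counts assume that the lone array varies like the other groups. The causes were not tested.

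Leaving out 1 rat gave CA 21 to 25 over 6 times, 3 to 5 at 1m, 2 (without control 4017) to 12 (without CA 4127) at 3m, 1 to 4 at 9m, 1 to 2 at 12m and 1 to 2 at 18m. DEN-CA gave 24 to 27 over 5 times, 11 (without DEN 4053) to 20 at 5j, 12 (without DEN-CA 4094) to 27 (without DEN-CA 4090) at 1m, 3 (without DEN 4063) to 11 at 3m and 1 to 3 at 9m. The difference between arms gave 0 to 1, CA rev against control rev 0 to 1, CA against CA rev 2 to 7, DEN-CA against DEN-CA rev 1 to 2, CA labelled 18 13 to 22, control 18m against 5j 0 to 5, TU 0 to 4 (without rat 4137) in the CA and 4 to 6 in the DEN-CA arm. These ranges cover only rats of the groups or arm compared, and no share of all genes is set beside them. Both arms share the TU fit, and without CA rat 4137 the DEN-CA arm gave 4 higher and 4 lower. The counts of CA against control and of DEN-CA against DEN over all times kept their direction and size under every alternative run except, for DEN-CA, arrays without the B suffix. Signal over background was not analysed here, so the precision of dim members is known only from the spread between rats.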

Other observations

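Over the 30 means of the untagged groups, the 10 genes whose level followed the core mean most closely were led by Atp5f1d (r = 0.922), a subunit of ATP synthase, followed by Skic8 (0.914), Ndufab1 (0.905), Ndufc2 (0.903), Bloc1s1 (0.893), Ndufs3 (0.891), Uqcrfs1 (0.89), Atp5pd (0.884), Hspe1 (0.881) and Timm13 (0.881). Ndufab1, Ndufc2 and Ndufs3 belong to complex I of the respiratory chain, and Uqcrfs1 to complex III in textbook naming. Their changes under CA are not given, since the means used to choose them include the CA and DEN-CA groups. The points share the arrays and their scaling, and the correlation of the core with the mean of all genes over the same 30 means was 0.593.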
